A study of Mus musculus with 19 samples.

Results

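Early T helper 2 (Th2) cultures with a deleted Gata3 gene were compared with early wild-type (WT) cultures by RNA sequencing of mouse cells. The comparison used every library that the labels place in these groups, 4 of the 19 samples in the series, with 2 early Gata3 knockout (KO) and 2 early Gata3 WT libraries. Another 4 libraries of the same experiment, 2 late Gata3 KO and 2 late Gata3 WT, shared the estimate of spread and served the comparison of stages. For each of 22878 gene symbols the transcript with the most reads was kept, and 10289 genes with at least 1 RPKM (reads scaled to transcript length and library total) in at least 2 of the 4 early libraries were tested. For the sister experiment on Bcl11b, the series describes naive CD4 T cells with a floxed allele and an inducible Cre, kept for 4 days under Th2 conditions as early cells. The Cre, the deleting agent, the deleted exons, the age of the mice and the days of culture are, for the Gata3 cells, not given in the sources used here. Nor do the labels say that the 2 libraries of a group came from separate mice or cultures, so p-values measure only the spread between these libraries, which may be technical.

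GATA3 is a zinc-finger transcription factor that binds GATA motifs. In CD4 T cells it opens the locus of the type 2 cytokines interleukin 4, 5 and 13 during Th2 differentiation and holds back the Th1 program of interferon gamma, T-bet and STAT4. It is also needed earlier, for CD4 T cell development in the thymus, and by group 2 innate lymphoid cells (ILC2), which make the same cytokines.

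Reads assigned to genes numbered 9133698 and 8404967 in the KO libraries and 7629243 and 8118204 in the WT libraries. Pearson's r of log2 CPM (counts scaled to library size, by TMM) over genes, which are not independent replicates, was 0.990 between the KO libraries and 0.985 between the WT libraries. The Gata3 transcript itself stood at 428 and 421 CPM in the KO libraries, against 1182 and 1281 CPM in the WT libraries. Its log2 fold change, KO over WT, was -1.54 ± 0.11 (SE; edgeR quasi-likelihood test, Benjamini-Hochberg adjusted p = 6.16e-06), so the libraries labelled KO were the lower ones, yet kept many Gata3 reads. Counts are summed over the whole transcript, and in bulk RNA cells with an intact gene and transcripts that lack the deleted exons cannot be told apart in that remainder. In the same way, fewer cells of a type and less RNA per cell cannot be told apart in any result here. Cd4 read 841 and 859.6 CPM in KO and 653 and 690.3 CPM in WT libraries, with a log2 fold change of 0.34 ± 0.10 (edgeR adjusted p = 0.0282), a call lost when any early library was left out (adjusted p 0.0746 to 0.153) and without late WT replicate 1 (adjusted p 0.0539).

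At an adjusted p under 0.05, 1503 genes rose in KO cells (14.6% of those tested) and 1676 fell (16.3%), with a median log2 fold change of 0.01 over all genes. The counts of called members in every gene list below are to be read beside these shares. The changes were often large: 383 genes rose and 357 fell by over 2 on the log2 scale, and 108 rose and 89 fell by over 5. Of the risen genes, 320 were under 1 RPKM in both WT libraries, and of the fallen genes, 281 were under 1 RPKM in both KO libraries. Such genes passed the filter only by their level in the other group, so the filter set the direction of these 2 counts. Between the groups, the libraries did not overlap for any of the 3179 called genes, nor for 67.1% of all genes tested. Fewer genes were called with 3 early libraries: 1014 rose and 1133 fell without KO replicate 1, and 1003 rose and 1051 fell without KO replicate 2.

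**Figure D1:**
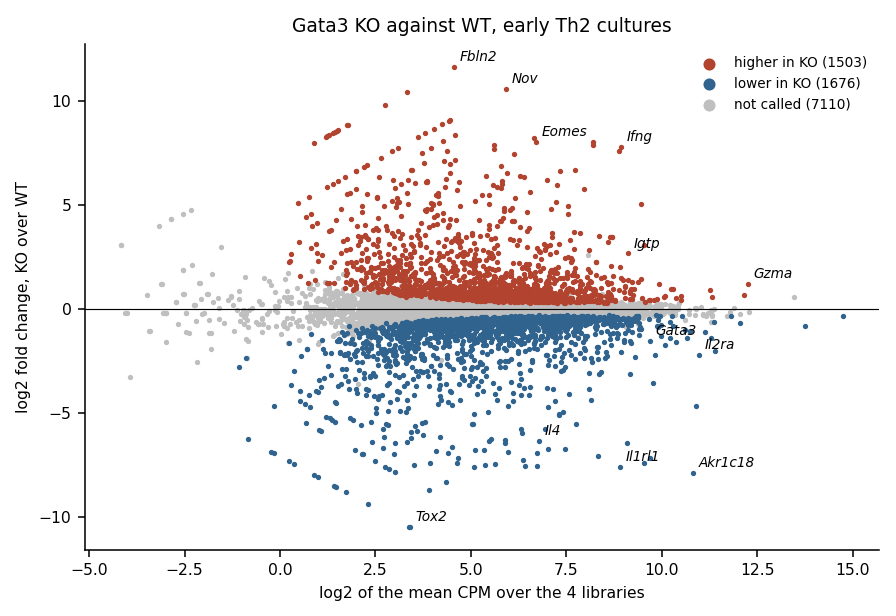
Each point is 1 of the 10289 genes tested; the x axis is the log2 of its mean CPM over the 4 early libraries and the y axis its log2 fold change, KO over WT. Red points (1503) rose in KO, blue points (1676) fell and grey points were not called; the fan reaches past 5 on both sides of 0, and the outermost points have few reads in a group, where the fitted fold depends on the prior count.

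Type 2 cytokines were far lower in KO cells. Of 12 tested members of a list of Th2 and type 2 cytokines, 9 fell and 1 rose, with a median log2 fold change of -4.93 (-4.06 with Il9 set at its bound). The list also holds Rad50, a DNA repair gene of the cytokine locus and not a cytokine, which is 1 of the 9 falls. Il4, which encodes the cytokine that drives Th2 differentiation and class switching to IgE, had 3.16 and 2.2 CPM in KO and 200.2 and 232 CPM in WT libraries, a log2 fold change of -6.33 ± 0.32 (edgeR adjusted p = 7.38e-07). Il5, the growth factor of eosinophils, had 5.24 and 1.38 CPM in KO and 394 and 311 CPM in WT libraries (log2 fold change -6.71 ± 0.41, edgeR adjusted p = 1.75e-06). Il13, which acts on epithelium and smooth muscle, had 2.40 and 1.03 CPM in KO and 215 and 211 CPM in WT libraries (log2 fold change -6.93 ± 0.23, edgeR adjusted p = 1.84e-07). For each of the 3, the higher KO library stayed far below the lower WT library. Without KO replicate 1 the log2 fold change was -7.98 for Il5 and -7.66 for Il13, and without KO replicate 2 it was -6.08 for Il5.

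The other fallen cytokines reach beyond the classical trio. Il10, an anti-inflammatory cytokine, had 158 and 118 CPM in KO and 1432 and 1762 CPM in WT libraries (log2 fold change -3.53 ± 0.20). Areg, encoding the epidermal growth factor family ligand amphiregulin, had 1.31 and 0.459 CPM in KO and 129.7 and 211 CPM in WT libraries (log2 fold change -7.55 ± 0.42), and Penk, the enkephalin precursor, had 14.7 and 8.61 CPM in KO and 1465 and 1819.9 CPM in WT libraries (log2 fold change -7.13 ± 0.25). Without KO replicate 1 the log2 fold change of Areg was -8.49. The edgeR adjusted p was 1.00e-06 for Il10, 9.55e-07 for Areg and 2.09e-07 for Penk. Il9, which supports mast cells, had no read in the KO libraries and 1.77 and 6.14 CPM in the WT libraries, at least 24.1-fold lower against a floor of 3 reads over the KO group. Its call (edgeR adjusted p = 0.0484) was lost without KO replicate 1 (0.159), KO replicate 2 (0.162) or WT replicate 2 (0.184), and by limma on log2(RPKM + 1) (0.0896). Il24, of the interleukin 10 family, also fell, with 371 and 195 CPM in KO and 685 and 592 CPM in WT libraries (log2 fold change -1.17 ± 0.34, edgeR adjusted p = 0.0242, lost without KO replicate 2 at 0.163, without WT replicate 1 at 0.0846 and by DESeq2 at 0.0515). The rise was Csf2, encoding the growth factor GM-CSF, at 6.55 and 8.61 CPM in KO and 1.36 and 0 CPM in WT libraries (log2 fold change 3.50 ± 0.81, edgeR adjusted p = 0.00888, which was 0.0543 without KO replicate 2 and 0.117 by DESeq2). Without WT replicate 1 its log2 fold change was 9.01, and without WT replicate 2 it was 2.45.

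**Figure D2:**
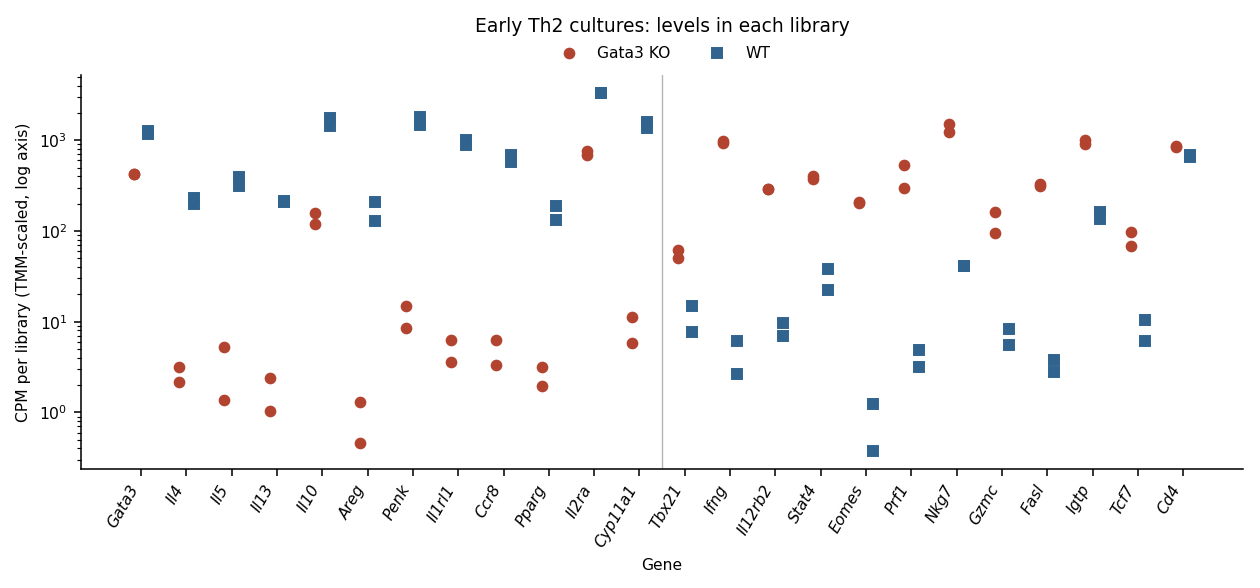
Levels of 24 genes in each early library, in TMM-scaled CPM on a log axis; red circles are the 2 KO libraries and blue squares, to their right, the 2 WT libraries. For Gata3 and the 11 genes that follow it both KO libraries lie below both WT libraries, and from Tbx21 on both KO libraries lie above, with the smallest gap at Cd4.

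The Il4, Il13 and Il5 genes lie together on chromosome 11 with Rad50, a DNA repair gene that holds the locus control region, and neighbouring genes were also called. In RefSeq on GRCm38.p6, Il4 spans chr11:53612460-53618665, Il13 chr11:53631323-53634702, Rad50 chr11:53649519-53707319 and Il5 chr11:53720794-53725103. Rad50 itself fell, with 64.8 and 80.0 CPM in KO and 133 and 142 CPM in WT libraries (log2 fold change -0.93 ± 0.12, edgeR adjusted p = 0.000266). On the Il4 side, Kif3a (chr11:53565701-53604248), a motor protein gene of cilia, had 9.93 and 12.4 CPM in KO and 136 and 146 CPM in WT libraries, a log2 fold change of -3.66 ± 0.15 (edgeR adjusted p = 3.02e-07). Septin8 (chr11:53519397-53549605; Sept8 in the files), a cytoskeletal gene, followed with 4.04 and 5.51 CPM in KO and 45.3 and 57.2 CPM in WT libraries (log2 fold change -3.42 ± 0.30, edgeR adjusted p = 1.81e-05). On the Il5 side, Irf1 (chr11:53770014-53778374), an interferon response factor, was higher in KO at 306 and 326 CPM in KO and 95.2 and 109 CPM in WT libraries (log2 fold change 1.63 ± 0.15, edgeR adjusted p = 2.49e-05). Septin8, Kif3a and Irf1 were picked here for their position, with Septin8 and Kif3a added after their values had been seen.

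The promoters below are those of changed genes that carry a GATA3 peak of late WT Th2 cells within 1 kb of the start. Each is the 250 bases before the start, 5′ to 3′ on the gene's strand, from RefSeq on GRCm38.p6, with each GATA motif in capitals: the letters AGATAA on either strand, where the first base may also be T and the last may also be G. The first 3 belong to genes that fell and the last to a gene that rose.
Il1rl1, chr1:40429320-40429569, plus strand: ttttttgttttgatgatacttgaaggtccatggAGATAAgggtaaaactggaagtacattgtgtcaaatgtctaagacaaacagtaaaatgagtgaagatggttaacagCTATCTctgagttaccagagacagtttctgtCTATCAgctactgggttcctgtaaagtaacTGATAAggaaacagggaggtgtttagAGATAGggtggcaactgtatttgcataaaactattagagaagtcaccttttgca
Il13, chr11:53634703-53634952, minus strand: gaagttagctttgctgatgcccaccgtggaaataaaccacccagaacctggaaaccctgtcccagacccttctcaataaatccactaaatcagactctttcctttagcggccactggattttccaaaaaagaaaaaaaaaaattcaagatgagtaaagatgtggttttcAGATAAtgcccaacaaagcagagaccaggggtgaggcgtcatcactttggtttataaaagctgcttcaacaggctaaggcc
Cyp11a1, chr9:58014702-58014951, plus strand: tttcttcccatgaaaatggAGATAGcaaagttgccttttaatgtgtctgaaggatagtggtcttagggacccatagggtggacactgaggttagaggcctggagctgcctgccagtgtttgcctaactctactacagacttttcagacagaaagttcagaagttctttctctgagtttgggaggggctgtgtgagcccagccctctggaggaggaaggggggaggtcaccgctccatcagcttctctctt
Havcr2, chr11:46454681-46454930, plus strand: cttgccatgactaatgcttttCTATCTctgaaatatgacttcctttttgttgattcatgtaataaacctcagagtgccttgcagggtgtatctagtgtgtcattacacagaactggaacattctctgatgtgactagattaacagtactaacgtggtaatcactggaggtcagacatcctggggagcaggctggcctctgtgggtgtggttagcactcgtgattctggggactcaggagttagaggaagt

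The Il1rl1 window held 5 such matches and each of the other 3 windows 1. A further pair of fallen genes chosen by the same rule, Tpbg and Sval1, held 1 and 0, and the risen genes Ccrl2 and Ifi203 held 1 and 0. Such a motif stood in 26.5% of all 32851 promoter windows, in 16.8% of the 9214 windows of tested genes, in 19.1% of those of fallen genes and in 17.6% of those of risen genes. A match describes the letters in the window and is not a measured binding site.

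Receptors by which Th2 cells are recognised also fell. Of 16 tested Th2 surface receptors, 13 fell and 3 rose, with a median log2 fold change of -1.99. Il1rl1, the receptor for interleukin 33, had 6.33 and 3.56 CPM in KO and 889 and 1009 CPM in WT libraries (log2 fold change -7.57 ± 0.41, edgeR adjusted p = 9.06e-07). Ccr8, a chemokine receptor of Th2 and regulatory T cells, had 6.22 and 3.33 CPM in KO and 688 and 578 CPM in WT libraries (log2 fold change -7.04 ± 0.26, edgeR adjusted p = 2.61e-07). Further falls, as log2 fold changes, were those of the eosinophil chemokine receptor Ccr3 (-4.76), the leukotriene receptor Cysltr1 (-4.39) and the decoy receptor Il1r2 (-5.10). Il2ra, the high-affinity chain of the interleukin 2 receptor, kept part of its level, with 755 and 691 CPM in KO and 3298 and 3335 CPM in WT libraries (log2 fold change -2.20 ± 0.11, edgeR adjusted p = 6.72e-07). The interleukin 7 receptor Il7r (-1.94), the costimulator Icos (-2.04), the tetraspanin Cd81 (-1.72) and the chemokine receptor Ccr4 (-1.53) also fell. The 3 rises were Il18r1 (1.82), a receptor chain of Th1 cells, the prostaglandin receptor Ptger2 (1.03) and Il4ra. Il4ra, the interleukin 4 receptor chain, had 1361 and 1202 CPM in KO and 969 and 752 CPM in WT libraries (log2 fold change 0.58 ± 0.17, edgeR adjusted p = 0.0285), lost without KO replicate 1 (0.161), KO replicate 2 (0.0703) or WT replicate 2 (0.181).

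Transcription factors of Th2 cells split in direction. Of 24 tested, Gata3 among them, 12 fell and 5 rose, with a median log2 fold change of -0.35. Pparg, a lipid-sensing nuclear receptor, fell most, with 3.16 and 1.95 CPM in KO and 132 and 189 CPM in WT libraries (log2 fold change -5.96 ± 0.32, edgeR adjusted p = 8.83e-07). Maf, an activator of Il4, had 47.0 and 71.5 CPM in KO and 262 and 206 CPM in WT libraries (log2 fold change -1.98 ± 0.24, edgeR adjusted p = 0.00017). The AP-1 partners Batf (-2.33), Irf4 (-2.26) and Junb (-1.64) fell together with the Ikaros family member Ikzf3 (-2.91), the Notch effector Rbpj (-1.84) and Nfia (-2.72). Ecm1, a secreted matrix protein on the same list, fell by 4.67 on the log2 scale (-3.64 without WT replicate 1 and -5.27 without WT replicate 2). Stat6, which transmits the interleukin 4 signal, and Stat5b, which transmits that of interleukin 2, were not called, with log2 fold changes of 0.12 ± 0.12 for Stat6 and 0.11 ± 0.11 for Stat5b. Tcf7, which encodes TCF-1, was the largest rise of the list at 69.2 and 98.3 CPM in KO and 10.3 and 6.14 CPM in WT libraries (log2 fold change 3.35 ± 0.35, edgeR adjusted p = 5.52e-05), above Bhlhe40 (1.41) and Ikzf1 (0.73). Bcl11b, the factor deleted in the sister experiment, had 109.5 and 108 CPM in KO and 161 and 135 CPM in WT libraries (log2 fold change -0.44 ± 0.12, edgeR adjusted p = 0.0211), a call lost without KO replicate 1 (0.098), KO replicate 2 (0.109) or WT replicate 1 (0.155), and by limma on log2(RPKM + 1) (0.0666) or log2(RPKM + 0.1) (0.0647).

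The 20 largest falls among genes of at least 5 RPKM in WT included hormones, enzymes and neuronal genes. Cyp11a1, which makes pregnenolone from cholesterol, had 11.3 and 5.85 CPM in KO and 1370.2 and 1586 CPM in WT libraries (log2 fold change -7.42 ± 0.35, edgeR adjusted p = 5.33e-07). Akr1c18, an enzyme that inactivates progesterone, had 19.4 and 11.5 CPM in KO and 3424 and 3744 CPM in WT libraries (log2 fold change -7.85 ± 0.24, edgeR adjusted p = 1.11e-07). An enzyme of steroid synthesis and an enzyme of steroid clearance thus fell together. Pth, encoding parathyroid hormone, had 1.42 and 0.804 CPM in KO and 239 and 187 CPM in WT libraries (log2 fold change -7.56 ± 0.46), and Slc17a6, a vesicular glutamate transporter, had 0.655 and 0.459 CPM in KO and 105 and 91.5 CPM in WT libraries (log2 fold change -7.42 ± 0.28). The edgeR adjusted p was 1.79e-06 for Pth and 2.61e-07 for Slc17a6. Gap43, a growth cone protein, had 2 reads in KO in all and 28.3 and 16.9 CPM in WT, a WT to KO ratio of 200.0 (exact 95% counting interval 54.9 to 1658).

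Immune genes stood in the same set. Tox2, an HMG-box factor of follicular helper cells, had no read in KO and 13.5 and 28.3 CPM in WT, at least 126-fold lower against the floor of 3 reads over the KO group. Gpr15, a homing receptor for the colon, had 0.546 and 0 CPM in KO and 49.3 and 49.7 CPM in WT libraries (log2 fold change -7.39 ± 0.40), and Slc7a8, an amino acid transporter, had 0.436 and 0.230 CPM in KO and 41.5 and 59.1 CPM in WT libraries (log2 fold change -7.17 ± 0.35). Aldh3b2, an aldehyde dehydrogenase, had 1 read in KO and 25.4 and 34.0 CPM in WT, a WT to KO ratio of 534 (interval 95.4 to 21139). Lhfpl1 had a ratio of 360.3 (99.3 to 2982) and Ifitm6, an interferon-induced transmembrane protein, of 156 (27.6 to 6217). Sval1 (-7.58), the trophoblast glycoprotein Tpbg (-6.89) and the synaptic scaffold Tanc2 (-6.86) fell by similar amounts. Stfa2, a cathepsin inhibitor with near-identical copies whose reads the counting could split, had a WT to KO ratio of 194 (34.3 to 7691). Its call (edgeR adjusted p = 0.00983) was lost without KO replicate 1 (0.0671), KO replicate 2 (0.0791) or WT replicate 1 (0.0533). Without KO replicate 1 the log2 fold change was -11.68 for Gpr15 and -9.01 for Sval1, without KO replicate 2 it was -6.48 and -6.92 for the same genes, and without WT replicate 1 it was -6.96 for Sval1.

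Genes shared with ILC2 fell too: 9 of 10 tested members of that list fell and none rose, with a median log2 fold change of -4.71. However, Gata3, Areg, Il1rl1, Il2ra, Id2 and Rora, among others, also belong to other lists here, and Gata3 is the deleted gene. Calca, the precursor of calcitonin and its gene-related peptide, had 0.327 and 0.230 CPM in KO and 43.1 and 24.3 CPM in WT libraries (log2 fold change -6.84 ± 0.64, edgeR adjusted p = 2.78e-05). Arg1, which breaks down arginine, had 0.655 and 0.459 CPM in KO and 30.6 and 20.6 CPM in WT libraries (log2 fold change -5.48 ± 0.63, edgeR adjusted p = 0.000109). Nmur1, the neuromedin U receptor, had 1 read in KO and 3.67 and 2.63 CPM in WT, a WT to KO ratio of 56.0 (9.58 to 2256).

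Inhibitory and costimulatory receptors were mostly lower in KO cells. Of 19 tested genes of regulatory T cells and inhibitory receptors, 14 fell and 4 rose, with a median log2 fold change of -1.19. Ctla4, a checkpoint receptor, had 346 and 308 CPM in KO and 1540.1 and 1455 CPM in WT libraries (log2 fold change -2.19 ± 0.15, edgeR adjusted p = 3.04e-06). Btla (-3.26), Lag3 (-1.18), Cd200 (-1.99), the integrin Itgae (-2.94), the receptor Gpr83 (-3.21) and the factor Foxp3 (-1.19) fell with it. The 4 rises were Havcr2, which encodes the checkpoint receptor TIM-3 (3.30), the TGF-beta carrier Lrrc32 (4.57), and the ectoenzymes Entpd1 (1.91) and Nt5e (0.78; edgeR adjusted p 0.012, but 0.0733 without KO replicate 1 and 0.0831 without WT replicate 1). Among 10 follicular helper genes, some of them the same, 8 fell and none rose (median -2.02), among them Il21, a cytokine for B cell help (-5.52), and Il6ra, the interleukin 6 receptor (-4.30). Of 8 tested Th17 genes 4 fell and 3 rose (median -1.35), with falls of Il17a (-3.45) and the aryl hydrocarbon receptor Ahr (-3.23) and rises of the membrane proteins Tmem176a (2.48) and Tmem176b (2.24).

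Most homing receptors fell. Of 14 chemokine and lipid homing receptors, 10 fell and 2 rose, with a median log2 fold change of -1.56. Ccr1, a receptor for inflammatory CC chemokines, had 3.38 and 1.49 CPM in KO and 224 and 289.9 CPM in WT libraries (log2 fold change -6.70 ± 0.28, edgeR adjusted p = 3.03e-07). Cxcr4 (-2.57), Cxcr6 (-3.14) and S1pr1, the receptor for exit from lymph nodes (-3.48), also fell, while Cxcr3, the Th1 homing receptor (1.55), and Ccrl2, an atypical receptor (3.97), rose. The call of Cxcr3 (edgeR adjusted p = 0.00581) was lost without KO replicate 2 (0.0592). Of 6 tested chemokine ligands 5 rose and 1 fell (median 3.09). Ccl5 had 190.1 and 141 CPM in KO and 3.40 and 0.752 CPM in WT libraries (log2 fold change 6.34 ± 0.42, edgeR adjusted p = 3.05e-06), and Ccl3 rose by 3.57 on the log2 scale. The fall was Cxcl3, with 0.546 and 0.230 CPM in KO and 13.6 and 39.6 CPM in WT libraries (log2 fold change -6.04 ± 0.73, edgeR adjusted p = 0.000157). Several of these sizes leaned on 1 library. Without KO replicate 1 the log2 fold change was -7.41 for Ccr1 and -6.77 for Cxcl3. Without WT replicate 1 it was 7.75 for Ccl5 and 4.96 for Ccrl2, and without WT replicate 2 it was 5.59 for Ccl5, 3.34 for Ccrl2 and -5.08 for Cxcl3.

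The Th1 axis was higher in KO cells. Of 26 tested members 20 rose and 2 fell, with a median log2 fold change of 1.88. Ifng, the defining cytokine of Th1 cells, had 938 and 995 CPM in KO and 6.12 and 2.63 CPM in WT libraries, a log2 fold change of 7.80 ± 0.92 (edgeR adjusted p = 0.000124). Tbx21, which encodes the Th1 factor T-bet, also rose, with 50.8 and 61.4 CPM in KO and 7.61 and 14.9 CPM in WT libraries (log2 fold change 2.31 ± 0.53, edgeR adjusted p = 0.00824, which was 0.0508 without KO replicate 2 and 0.057 without WT replicate 1). Its relative Eomes, the T-box factor of CD8 T and NK cells, had 206 and 208 CPM in KO and 1.22 and 0.376 CPM in WT libraries (log2 fold change 8.02 ± 0.32, edgeR adjusted p = 3.02e-07). Genes of the interleukin 12 pathway also rose. The receptor chain Il12rb2 had 292 and 291 CPM in KO and 9.65 and 6.90 CPM in WT libraries (log2 fold change 5.14 ± 0.28, edgeR adjusted p = 9.81e-07), and the signal transducer Stat4 had 405 and 374 CPM in KO and 37.7 and 22.2 CPM in WT libraries (log2 fold change 3.70 ± 0.28, edgeR adjusted p = 6.50e-06). Runx3, a partner of T-bet, rose by 1.13 on the log2 scale. Fasl, the death ligand, had 310.0 and 331 CPM in KO and 3.81 and 2.76 CPM in WT libraries (log2 fold change 6.61 ± 0.24, edgeR adjusted p = 2.41e-07). The 2 falls were the homeobox factor Hlx (-3.83) and Cxcr6. Without WT replicate 1 the log2 fold change was 8.51 for Ifng and 9.04 for Eomes, without WT replicate 2 it was 7.37 for Eomes, and for Hlx it was -6.10 without KO replicate 1 and -3.03 without KO replicate 2.

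Cytotoxic and NK receptor genes were higher in KO cells: 19 of 21 tested rose and 1 fell, with a median log2 fold change of 5.06 (4.96 with Gzmk at its bound). Prf1, the pore-forming perforin, had 533 and 301 CPM in KO and 4.89 and 3.13 CPM in WT libraries (log2 fold change 6.70 ± 0.33, edgeR adjusted p = 5.92e-07). Nkg7, a granule membrane protein, had 1508 and 1236 CPM in KO and 41.1 and 41.1 CPM in WT libraries (log2 fold change 5.06 ± 0.35, edgeR adjusted p = 3.67e-06). Serpinb9 (6.21), an inhibitor of granzyme B, and the cathepsin Ctsw (3.65) rose with them. Gzmc had 162 and 95.1 CPM in KO and 8.29 and 5.52 CPM in WT libraries (log2 fold change 4.22 ± 0.29, edgeR adjusted p = 3.61e-06), and its neighbours Gzmd, Gzme, Gzmf and Gzmg rose too, with reads that near-identical copies may share. Gzmb, the main granzyme of cytotoxic cells, had 15861 and 11383 CPM in KO and 10916 and 7299 CPM in WT libraries and was not called (log2 fold change 0.58 ± 0.27, edgeR adjusted p = 0.144). It was called by edgeR with no filter on low values (adjusted p = 0.000288) and with the replicate number as a block (adjusted p = 1.98e-05). Gzma had 8432 and 5159 CPM in KO and 3457 and 2427 CPM in WT libraries (log2 fold change 1.21 ± 0.33, edgeR adjusted p = 0.0211, but 0.173 without KO replicate 1 and 0.116 without WT replicate 2). Receptors of NK cells were close to 0 in WT: Klrd1 (CD94) had 38.7 and 15.7 CPM in KO and 3 WT reads in all, a KO to WT ratio of 141 (47.8 to 684), and Klrb1c (NK1.1) had 1 WT read and a ratio of 669 (119.7 to 26455). Fcer1g, a signalling chain of NK receptors, had 2 WT reads and a ratio of 201 (55.2 to 1662). The fall was Srgn, the granule proteoglycan serglycin, at 1099 and 1048 CPM in KO and 4405 and 4159 CPM in WT libraries (edgeR adjusted p = 4.25e-06).

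All 26 type I interferon response genes tested rose, with a median log2 fold change of 3.20, and so did all 15 interferon-inducible GTPases, with a median of 2.67. Irf7, the factor that amplifies the interferon response, had 178 and 152 CPM in KO and 13.7 and 11 CPM in WT libraries (log2 fold change 3.74 ± 0.22, edgeR adjusted p = 1.58e-06). Usp18, a brake on the interferon receptor, had 68.4 and 120.4 CPM in KO and 1.77 and 1.25 CPM in WT libraries (log2 fold change 5.96 ± 0.35), and Isg15, a ubiquitin-like protein, had 47.7 and 45.3 CPM in KO and 6.93 and 3.51 CPM in WT libraries (log2 fold change 3.16 ± 0.28). The edgeR adjusted p was 1.39e-06 for Usp18 and 2.05e-05 for Isg15. Ranges were wide, with Bst2, which tethers viruses, at 0.97 and the GTPase Iigp1 at 5.95. Among the GTPases Igtp had 908 and 996 CPM in KO and 137 and 162 CPM in WT libraries (log2 fold change 2.67 ± 0.21, edgeR adjusted p = 8.04e-06), and Gbp2 had 234 and 251 CPM in KO and 27.6 and 29.7 CPM in WT libraries (log2 fold change 3.08 ± 0.27, edgeR adjusted p = 1.82e-05). Pairs such as Tgtp1 and Tgtp2, Gbp6 and Gbp10, or the Oas1 genes are near-identical, so their single values are uncertain.

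The largest rises among genes of at least 5 RPKM in KO were of several kinds. Fbln2, which encodes the matrix protein fibulin-2, had 44.2 and 50.5 CPM in KO and no read in WT, at least 242-fold higher against the floor of 3 reads over the WT group. Nov, a secreted matrix-associated protein, had 146 and 96.3 CPM in KO and 1 read in WT, a KO to WT ratio of 1869.6 (335 to 73879). Pnliprp2, a lipase, had a ratio of 654 (117 to 25879), the lectin Mgl2 of 575 (103 to 22763), Clec2i, a ligand of NK receptors, of 371 (66.3 to 14701) and the muscle protein gene Mybpc1 of 211 (71.8 to 1024). Xdh, the xanthine dehydrogenase, had 604 and 564 CPM in KO and 3.81 and 1.25 CPM in WT libraries (log2 fold change 7.87 ± 0.48), and Apol7c had 211 and 188 CPM in KO and 0.816 and 0.502 CPM in WT libraries (log2 fold change 8.22 ± 0.29). Without WT replicate 1 the log2 fold change of Xdh was 8.84, and without WT replicate 2 it was 7.25. The edgeR adjusted p was 1.79e-06 for Xdh and 2.22e-07 for Apol7c. The protease inhibitors Serpina3f, Serpina3g, Serpina3h and Serpina3i and the interferon-induced Ifi203, Ifi204 and Oas1g were in the same set, each uncertain because near-identical copies may share reads.

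**Figure D3:**
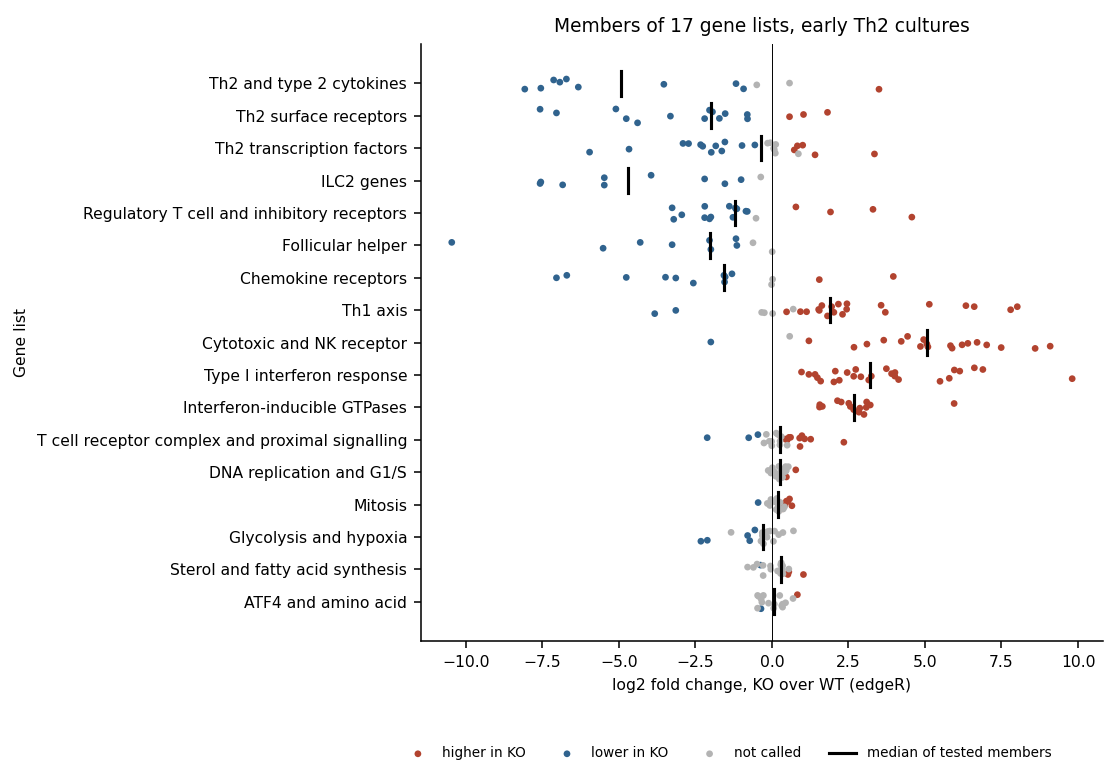
Each point is a tested gene of the list named at the left, placed by its log2 fold change, KO over WT, in early cultures; red points rose, blue points fell, grey points were not called, and black bars are medians. Medians run from -4.93 for the type 2 cytokine list, which holds Rad50, to 5.06 for the cytotoxic genes. Those of the proliferation and metabolic lists at the bottom lie within 0.3 of 0.

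Both CD8 chains rose, and genes of the T cell receptor had a median near 0. Cd8a had 16.7 and 12.3 CPM in KO and 1.63 and 0.878 CPM in WT libraries (log2 fold change 3.53 ± 0.34, edgeR adjusted p = 3.46e-05), and Cd8b1 had 22.6 and 18.8 CPM in KO and 9.92 and 7.52 CPM in WT libraries (log2 fold change 1.25 ± 0.22, edgeR adjusted p = 0.0019). Over the 10 tested CD4 and CD8 lineage genes 4 rose and 2 fell (median -0.04, but 0.03 by limma on log2(RPKM + 1) and 0.12 without WT replicate 1), the second fall being Myb (-1.71), a factor of progenitors. Of 27 genes of the T cell receptor complex and its proximal signalling 11 rose and 3 fell (median 0.27), or 7 and 2 without KO replicate 2. Trat1, a receptor-associated adaptor, rose by 2.35 on the log2 scale, and Malt1, a protease of the NF-kappaB branch, had 60.8 and 69.7 CPM in KO and 291 and 274 CPM in WT libraries (log2 fold change -2.11 ± 0.13, edgeR adjusted p = 1.79e-06). Zap70, the receptor-proximal kinase, fell by 0.76. Receptors and signal transducers of the common gamma chain family gave 7 rises and 5 falls in 23 (median 0.09), with Il15ra (1.39) and Il2rb (0.97) higher and the feedback inhibitor Socs3 (-2.37) lower. For comparison with these counts, 14.6% of all genes tested rose and 16.3% fell.

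Genes of naive and memory T cells went both ways, 7 up and 11 down of 23 tested (median -0.40). Of all genes tested, 14.6% rose and 16.3% fell. Klf2, a factor of quiescent T cells, had 13.2 and 11.6 CPM in KO and 4.08 and 2.26 CPM in WT libraries (log2 fold change 1.97 ± 0.44, edgeR adjusted p = 0.0073, and 0.0551 without WT replicate 2). Other genes of naive cells fell: Ccr7 fell by 1.55, S1pr1 by 3.48 and Cd27 by 1.75 on the log2 scale. Of the Id and E proteins, which oppose each other in T cell development, Id3 (-3.08) and Id2 (-1.01) fell and Tcf12 (1.27) rose, with Tcf3 (0.71) called in all but the fits without KO replicate 1 (edgeR adjusted p 0.0785), KO replicate 2 (0.0703) or WT replicate 1 (0.105).

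Lists of proliferation and metabolism had medians within 0.3 of 0, and 30.9% of all genes tested were called in either direction. Of 20 DNA replication genes 2 rose and none fell (median 0.28), and of 20 mitosis genes 6 rose and 1 fell (median 0.21). Mcm7, a subunit of the replicative helicase, had 238 and 256 CPM in KO and 174 and 240.4 CPM in WT libraries (log2 fold change 0.25 ± 0.22), and the topoisomerase Top2a had 675 and 681 CPM in KO and 558 and 619 CPM in WT libraries (log2 fold change 0.20 ± 0.11), neither of them called. Of 22 glycolysis and hypoxia genes 5 fell and none rose (median -0.28), among them Hif1a, the hypoxia factor (-0.79), and Egln3, a prolyl hydroxylase that it induces (-2.11). Of 21 sterol and fatty acid genes 3 rose and 1 fell (median 0.29), and of 17 genes of the ATF4 and amino acid response 1 rose and 1 fell (median 0.06). The counts depended on the setting, and with the replicate number as a block more genes of each of these lists were called, as given below. With no filter on low values 7 DNA replication genes rose, 2 glycolysis and hypoxia genes rose and 8 fell, 4 sterol genes rose and 3 fell, and 2 ATF4 genes rose and 3 fell. With the 4 early libraries alone 4 DNA replication genes rose. None of the DNA replication genes was called without KO replicate 1, KO replicate 2 or WT replicate 1. Of the mitosis genes 2 rose and 1 fell without KO replicate 1 and likewise without WT replicate 1, and 1 rose and none fell without KO replicate 2. Of the glycolysis and hypoxia genes 2 fell without KO replicate 2 and 3 fell without WT replicate 1. The sterol list had 1 rise and 1 fall without KO replicate 1 (median -0.06) or WT replicate 1, and the ATF4 list had no call and a median of -0.16 without KO replicate 1 and a median of -0.22 without WT replicate 2.

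Markers of B cells, of macrophages and dendritic cells, and of mast cells and basophils were scarce. No gene of the 10 B cell markers passed the filter, and their summed RPKM was 0.881 and 0.982 in KO, against 1.49 and 0.497 in WT. Ms4a1 and Pax5 had no read. Of 15 macrophage and dendritic cell markers 3 were tested, of which Xcr1 fell (-3.86, or -4.85 without KO replicate 1), and Csf1r, Fcgr1, Siglech and Clec9a had no read. Of 14 mast cell and basophil markers 1 was tested, the protease Cma1, with 1 WT read and a KO to WT ratio of 98.6 (17.4 to 3929). Antigen presentation genes were not scarce, with a summed RPKM of 147 and 169 in KO, against 134 and 88.7 in WT. Of 7 tested antigen presentation genes 3 rose, led by Cd74, the invariant chain, at 34.6 and 30.9 CPM in KO and 7.07 and 4.14 CPM in WT libraries (log2 fold change 2.55 ± 0.26, edgeR adjusted p = 4.33e-05). Of 7 markers that define CD8 T and NK cells 5 were tested and 4 rose, and their summed RPKM was 56.6 and 56.7 in KO, against 4.97 and 3.51 in WT. Beside the counts in this paragraph, 14.6% of all genes tested rose and 16.3% fell. Ncr1 and Klra8, which encode receptors of NK cells, had no read. The part of such cells in the rise of the Th1, cytotoxic and interferon lists was not tested.

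The early contrast was set beside that of the late cultures. There Gata3 was less reduced, at 1097 and 951 CPM in late KO and 1375 and 1324 CPM in late WT libraries (log2 fold change -0.40, edgeR adjusted p = 0.0423). The sources used here do not say when Gata3 was deleted in the late cultures. A later deletion, a later harvest and the smaller loss of Gata3 therefore cannot be told apart in the stage comparison. The effect differed between stages for 1214 genes (11.8% of those tested), 471 of them higher and 743 lower in the early contrast, and among the early-called genes for 1068. By limma on log2(RPKM + 1) it was higher for 677 and lower for 549 genes, and on log2(RPKM + 0.1) higher for 596 and lower for 590. Of these 1068, 421 rose more early and 639 fell more early, and 8 went the other way. The median log2 fold change of the early-risen genes was 1.01 early and 0.44 late, and that of the early-fallen genes -0.91 early and -0.24 late. These genes were chosen by their early call, which by itself favours larger early than late effects. The medians and the split of the 1068 genes therefore do not measure how much weaker the late effect was. In the late contrast, 543 of the 1503 early-risen genes rose as well (8.16% of all genes rose late), and 411 of the 1676 early-fallen genes fell (5.4% of all fell late). Without early KO replicate 1 the stage difference was called for 732 genes, without early KO replicate 2 for 664, and without late WT replicate 1 for 858, of which 287 were higher early.

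The cytokine genes divided by stage. Il4 had a log2 fold change of -6.33 early and -0.76 late (late CPM 97.4 and 155 in KO and 179 and 251 in WT), and the early effect differed from the late by -5.56 ± 0.39 (edgeR adjusted p = 5.53e-05). Il5 had a late log2 fold change of -7.29 and a stage difference of 0.57 ± 0.66 that was not called (edgeR adjusted p = 0.637; -0.70 without early KO replicate 1 and 1.20 without early KO replicate 2, neither called). Il13 lay between, at -5.10 late (stage difference -1.82 ± 0.34, edgeR adjusted p = 0.00806; -2.56 without early KO replicate 1). Kif3a, next to Il4, had -3.66 early and 0.26 late, with a stage difference of -3.92 ± 0.19 (edgeR adjusted p = 7.78e-06). On the Th1 side Fasl had 2.04 late (stage difference 4.57 ± 0.36, edgeR adjusted p = 8.73e-05). The late KO libraries disagreed on Ifng, at 7.09 and 84.3 CPM in late KO and 3.12 and 4.06 CPM in late WT, and its stage difference of 4.06 ± 1.33 was not called (edgeR adjusted p = 0.0825). It was called in several alternatives: the difference was 5.07 by limma on log2(RPKM + 1) (adjusted p = 0.0272), 5.23 on log2(RPKM + 0.1) (0.0406) and 4.08 with no filter on low values (9.23e-11). By edgeR it was 3.25 (0.00302) without late KO replicate 1 and 6.82 (0.000187) without late KO replicate 2. Without early WT replicate 1 it was 4.78 (0.103). Il12rb2 had 4.38 late (0.76 ± 0.38, edgeR adjusted p = 0.24, and 0.0186 without late KO replicate 2 and 0.0261 with no filter). By list, the stage difference was called for 18 of 26 type I interferon genes, 14 of 21 cytotoxic genes and 11 of 14 chemokine receptors. It was also called for 7 of 12 members of the type 2 cytokine list, which holds Rad50, but for 1 of 20 DNA replication genes.

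**Figure D4:**
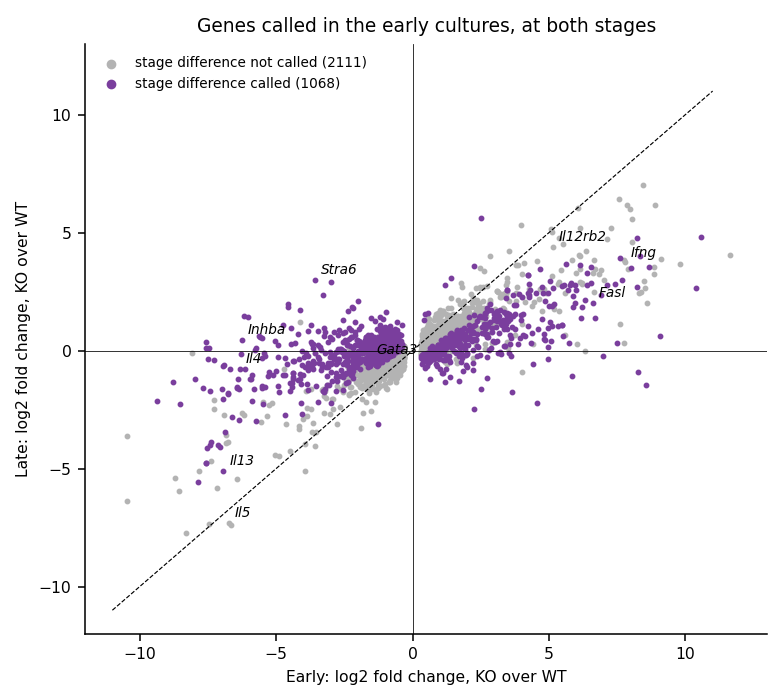
The 3179 genes called in the early cultures, with the early log2 fold change (KO over WT) on the x axis and the late one on the y axis; purple points have a called stage difference (1068) and grey points do not. The dashed diagonal marks equal effects, and most purple points lie closer to 0 on the late axis than on the early axis. The choice of genes by their early call favours this pattern.

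GATA3 binding had been mapped in late WT Th2 cells with 1 library of chromatin immunoprecipitation, so binding in early cells is not measured here. After peaks that overlap an input peak had been left out, 27199 of 28612 GATA3 peaks remained, each given to the gene with the closest start in the authors' list. A peak was listed for 64.6% of fallen genes (exact 95% binomial interval 62.3 to 66.9), 61.5% of risen genes (59.0 to 64.0), 53.3% of all genes tested and 48.9% of genes not called. By size of change, the share was 78.4% for falls of over 3 on the log2 scale (interval 72.1 to 83.8) and 55.8% (interval 49.3 to 62.2) for rises of over 3, whose interval overlaps that of all rises. Peaks of at least 10-fold enrichment, the authors' value, stood at 14.9% of fallen and 8.05% of risen genes and 6.87% of all. Maf had 56 peaks, Gata3 38, Ctla4 22, Il2ra 19, Il10 and Pparg 17 each, Il4 13 and Il13 9, by the closest-start rule, which favours genes in wide intergenic regions. Among the genes that rose, Jun had 17 and Il15ra 16 peaks. The intervals cover counting error over genes only, and no test was made with 1 library.

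**Figure D5:**
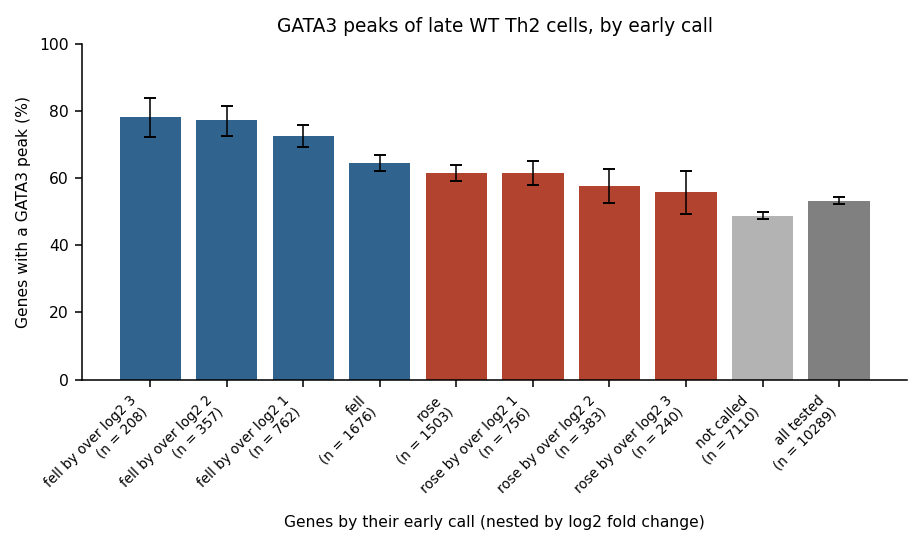
Bars give the percent of genes with at least 1 GATA3 peak (late WT cells, 1 library) by their early call, nested by log2 fold change; whiskers are exact 95% binomial intervals. The share climbs from 64.6% of all fallen genes to 78.4% of those that fell by over 3, and drops from 61.5% of all risen genes to 55.8% of those that rose by over 3, beside 53.3% of all genes tested.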

How the data were processed

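Per the labels' protocols, RNA came from an RNeasy kit, and the Ovation V2 system of NuGEN amplified 10 ng of it for HiSeq sequencing. Build mm10 and, with no role given, the tools MACS 1.4.2, Novoalign, TopHat2 2.0.13, Bowtie and CASAVA 2.18 stand in the submitters' processing notes. The way reads were counted and the strand setting are not stated in those notes or labels, so reads of a gene and of an overlapping or antisense gene cannot be told apart. The deposited tables hold raw counts per RefSeq transcript, without normalization, and RPKM values that the authors scaled to transcript length and a library total. Each peak list gives, per the file headers, a fold enrichment (a ratio computed by the authors), a score of -10 log10 p, an FDR in percent and reads per peak. The score and the percent deposited with each peak were not used.

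Counts were fitted with edgeR 4.0.16 in R 4.3.3 (TMM scaling, quasi-likelihood F test, Benjamini-Hochberg over 10289 genes, threshold 0.05) on 8 libraries in 4 groups, with a common biological coefficient of variation of 0.123. The standard error is the absolute log2 fold change over the square root of F. The libraries of a group differed by more than sampling noise (chi-square per degree of freedom of 7.44 to 14.8), so each counted as 1 sample. Gene reads made up 58.6 to 59.8% of the total implied by RPKM in the 4 early libraries. A group with no read was set against a floor of 3 reads over the group, and a group with 1 to 3 reads got an exact 95% interval, both covering counting error only. Counts were also simulated for 10289 genes, all with the same dispersion, and 100 genes above a minimum of reads were changed by each fold. Of these, 95% of 2-fold and 100% of 4-fold changes were recovered, with 11 false calls. The simulation does not cover changed genes with few reads, unequal spread or the larger share of genes called here. The alternatives were RLE scaling, DESeq2 1.42.0, limma 3.58.1 on log2(RPKM + 1) and log2(RPKM + 0.1), 2 other filters, the longest transcript, each library left out, and, for peaks, 4 other rules.

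The comparison, the genes and the lists were chosen with earlier results of these data known. Gata3, Bcl11b, Il4, Il5, Il13, Ifng and Tbx21 were named by rule. So were the 20 largest rises and falls among called genes of at least 5 RPKM in the higher group with names of their own. The rule also took the first tested and most significant members of each list, genes whose effect differs most between stages or is opposite in sign, and genes with peaks near promoters. Many further list members were named outside this rule with the results of these data known. Among them are Nkg7, Igtp, Irf7, Isg15, Srgn, Klf2, Hlx and Mcm7, and Septin8 was added in the same way. A few genes are not reported here. The rest was done in Python 3.11.15 (matplotlib 3.10.9, scipy 1.17.1, pandas 2.3.3, numpy 2.4.6).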

Additional observations from a re-analysis of the deposited data

Results flagged for a closer look

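The effect of the Gata3 deletion differed between early and late cultures for 16 genes named by the smallest p-values or by opposite signs at the 2 stages. The stage difference is the early log2 fold change, KO over WT, minus the late one, and its edgeR adjusted p was at most 8.76e-05 for these genes.

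Inhba, a subunit of activin A, differed by -6.68, with -6.25 early and 0.44 late. Timd2, a receptor of the TIM family, differed by -6.56 (-4.58 early, 1.99 late, and -7.16 for the difference without early KO replicate 1). Stra6, a retinol transporter, differed by -6.56 (-3.57 early and 2.99 late), or by -7.57 without early KO replicate 1. Ccr1 differed by -5.93 and Atp6v0d2, a proton pump subunit, by -5.83, or by -6.64 and -6.47 without early KO replicate 1. Ermn, a cytoskeletal protein of myelin, differed by -5.79, the glutamate transporter Slc17a6 by -5.69 and Serpinf1, a secreted serpin, by -5.18. Selm, a selenoprotein, differed by -4.05, the membrane trafficking gene Ehd2 by -3.99 and Kif3a, beside Il4, by -3.92. The lipase Mgll differed by -3.87, the Rab regulator Dennd5a by -3.64 and Ncs1, a neuronal calcium sensor, by -3.51. Ebi3, a subunit of interleukins 27 and 35, differed by -2.59, with -0.96 early and 1.63 late. Coro2a, an actin-binding protein, was the gene with an early rise, 0.66 early and -1.22 late, a difference of 1.88. In the early contrast alone, leaving out KO replicate 1 gave a log2 fold change of -4.58 for Stra6, -5.17 for Timd2, -5.39 for Atp6v0d2 and -7.41 for Ccr1. The causes of these differences were not tested, and Gata3 itself was lower in early KO than in late KO cells relative to WT (stage difference -1.14 ± 0.16, edgeR adjusted p = 0.00156).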

How the results depend on the processing

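RLE scaling, DESeq2, limma, both other filters and the longest transcript kept the count of early calls within 1.5 times of 3179, with 2232 to 4169 genes called. With 1 library left out, 2054 to 3370 genes were called, 1003 to 1593 of them higher and 1051 to 1779 lower in KO. The stage difference moved more: with no filter on low values it was called for 2077 genes (824 higher and 1253 lower early, of 16268 tested), and with 1 library left out for 664 to 1351 (229 to 544 higher and 435 to 807 lower). In the limma fits, on values scaled by library totals, the median stage difference over all genes was 0.10 and 0.12 on the log2 scale, against 0.00 with edgeR. The share of genes with a GATA3 peak depended on the peak rule: at 10-fold enrichment or more it was 14.9% of fallen, 8.05% of risen and 6.87% of all genes, and within 10 kb of the start 51.5%, 44.6% and 39.0%. With peaks that overlap input kept it was 55.1% of all genes, and with a stricter overlap 54.9%. Of the called genes named in the text, 169 of 182 were called in every alternative that tested them and none changed sign. Many of them were named for large changes or small p-values in these same data, so their calls were likely to hold. Of all 3179 calls, DESeq2 kept 2780 and limma on log2(RPKM + 1) kept 2844, and fewer were kept when an early library was left out. The stage difference of Il5, not called, was -0.70 without early KO replicate 1 and 1.20 without early KO replicate 2. With the replicate number as a block, 1994 genes rose and 2118 fell (1928 and 2029 with the 4 early libraries only), and the stage difference was called for 2274 genes, 961 higher and 1313 lower. With that block 10 of 20 DNA replication genes and 9 of 20 mitosis genes rose, 13 of 22 glycolysis and hypoxia genes fell and 2 rose, 9 of 21 sterol genes rose and 6 fell, 2 of 17 ATF4 genes rose and 4 fell, Gzmb rose (edgeR adjusted p = 1.98e-05) and the stage difference of Ifng was called (0.0173). Same-numbered libraries deviated together, with correlations of 0.160 to 0.553, but with 2 numbers and no label that a number marks a shared mouse, culture or day, pairing is not established. With 2 libraries a group of 7629243 to 9133698 gene reads, genes near 1 RPKM carry few reads, and fold changes against groups with almost no reads are the least certain. The causes of these shifts were not tested.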

Other observations

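The TNF superfamily was divided, with 9 of 21 tested genes higher and 7 lower in early KO cells (median log2 fold change 0.17). Over all genes tested, 14.6% rose and 16.3% fell. Ltb, lymphotoxin beta, had 321 and 343 CPM in KO and 81.3 and 41.1 CPM in WT libraries (log2 fold change 2.44 ± 0.31, edgeR adjusted p = 0.00021), and Lta rose by 2.17, while the activation receptor Tnfrsf8 (CD30) had 27.3 and 10.1 CPM in KO and 254 and 277 CPM in WT libraries (log2 fold change -3.82 ± 0.36, edgeR adjusted p = 2.69e-05, and -4.71 as log2 fold change without KO replicate 1). Without WT replicate 1 the median of this list was -0.07, and without KO replicate 2 it had 7 rises and 3 falls. Of 18 integrins and adhesion genes 10 rose and 6 fell (median 0.50), or 6 and 4 without KO replicate 1. The integrin chains Itgb1 (log2 fold change 2.01) and Itgal (0.81) rose, and Itga4 (-2.63) and Itgb7 (-1.06), which pair for homing to the gut, fell. Cd96, an adhesion receptor of T and NK cells, had 276 and 234 CPM in KO and 26.8 and 19.8 CPM in WT libraries (log2 fold change 3.45 ± 0.18, edgeR adjusted p = 7.80e-07).

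Among 18 activation-induced genes 5 rose and 7 fell, with a median of 0.00, or of -0.20 without KO replicate 2. Fos had 1.20 and 4.48 CPM in KO and 25.6 and 27.7 CPM in WT libraries (log2 fold change -3.24 ± 0.41, edgeR adjusted p = 0.000199; -2.57 without KO replicate 1 and -4.47 without KO replicate 2) and Egr2 had 11.2 and 19.5 CPM in KO and 44.2 and 82.1 CPM in WT libraries (log2 fold change -2.04 ± 0.36, edgeR adjusted p = 0.00189), while Jun (1.38) and Irf8 (1.99) rose. Of 19 p53 targets 3 rose and 5 fell (median -0.24), or 1 and 3 without KO replicate 2, and 3 and 2 (median 0.04) without WT replicate 2. Among the falls were Perp (-3.12), a membrane protein of cell death, and Zmat3 (-1.67). Beside the counts of these lists, 14.6% of all genes tested rose and 16.3% fell.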
